A study of Mus musculus with 3 samples.

Results

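The genes described here encode 9 transcription factors that govern how keratinocytes, the main cells of the epidermis, move from the dividing basal layer to the cornified surface: Trp63, Klf4, Grhl1, Grhl3, Ovol1, Gata3, Zfp750, Cebpa and Prdm1. They were chosen by symbol, all 9 were measured, and they are 9 of the 24011 named genes on the arrays. Epidermal RNA was hybridised to 3 Affymetrix arrays, 1 per genotype, each with RNA pooled from 4 animals per the labels. The cFLIP KO mice were cFLIP fl/fl K14CreERtam, the cFLIP KO/TNF KO mice were TNF -/- cFLIP fl/fl K14CreERtam, and the TNF KO mice were TNF -/- with intact cFLIP and no Cre stated. All were mice whose epilated back skin had received tamoxifen, on 3 days per the labels, and epidermis was taken 72 h after the first application. The mice were adult per the study's text, which states no exact age. The K14 promoter drives Cre in basal keratinocytes and their progeny, so that cFLIP, an inhibitor of caspase-8, is lost from keratinocytes, whereas TNF is lost from all cells of TNF -/- mice. cFLIP KO and TNF KO epidermis therefore differ in both genes and in Cre, cFLIP KO/TNF KO and TNF KO epidermis differ in cFLIP and Cre, and both cFLIP-deficient genotypes differ from each other in TNF.

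Each genotype was measured once, so the error between replicates is unknown. No test was run, and every "higher" or "lower" refers to these pools alone. Values are log2 signals, so a difference of 1 is 2-fold, and a signal is compared between arrays for the same gene and not between genes. The epidermal label was checked with keratinocyte markers: the basal keratin Krt14 had a log2 signal of 13.00, 12.98 and 13.00, and the suprabasal keratin Krt10 of 13.48, 12.78 and 13.43, on the TNF KO, the cFLIP KO and the cFLIP KO/TNF KO array. Fibroblast markers were bright as well, with 5 of 6 among the brightest 10% of genes by mean signal. Their median log2 signals were 10.20, 10.08 and 10.58 in the same order of arrays. The keratinocyte markers therefore do not show that the pools held epidermis alone. Cflar, the gene of cFLIP, had 7.00, 6.29 and 6.53 in the same order, and Tnf had 5.11, 5.79 and 5.21. It is unknown here whether their probes fall inside the deleted sequence, which limits both genes as a check of the labels. The array of cFLIP KO epidermis differed from the others in its narrower spread of log2 values over genes (SD 1.77, against 2.06 and 2.04). Bright genes as a whole were lower on it. All 9 factors were among the brightest 10% of genes by mean signal, and among these the median lay at -0.79 in cFLIP KO epidermis and at -0.01 in cFLIP KO/TNF KO epidermis relative to TNF KO, beside 0 over all genes. Each factor is therefore also set against these 2401 genes.

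Keratinocytes divide in the basal layer, where p63, the product of Trp63, keeps the epithelial programme running. As they move up they leave the cell cycle and switch on genes of the cornified envelope, of lipid processing and of cell adhesion. Klf4, Grhl3, Gata3 and the C/EBP factors are required for parts of this switch in mice, and ZNF750, the human counterpart of Zfp750, acts downstream of p63 and with KLF4 in human keratinocytes.

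Promoters from RefSeq on the mouse build GRCm38.p6 were found for 6 of the 9 factors, and 4 are shown, because Grhl1 and Klf4 differed most between cFLIP KO and TNF KO epidermis, Grhl3 is the second Grainyhead-like member, and Prdm1 was nearly level across the arrays. Each runs 5′ to 3′ on the gene's strand from 250 bases before to 50 bases after the annotated start. Capitals mark the GC box GGGCGG and the CACCC box, letters that Krüppel-like and Sp factors can bind, searched on both strands. The windows are Grhl1 at chr12:24572037-24572336 (plus strand), Klf4 at chr4:55532426-55532725 (minus strand), Grhl3 at chr4:135573583-135573882 (minus strand) and Prdm1 at chr10:44458699-44458998 (minus strand).
Grhl1: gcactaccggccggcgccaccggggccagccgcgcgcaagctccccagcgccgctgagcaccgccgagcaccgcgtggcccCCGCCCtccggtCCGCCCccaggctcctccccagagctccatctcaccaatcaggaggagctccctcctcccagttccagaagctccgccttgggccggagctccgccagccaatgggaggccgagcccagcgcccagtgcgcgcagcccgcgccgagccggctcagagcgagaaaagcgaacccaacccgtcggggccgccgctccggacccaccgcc
Klf4: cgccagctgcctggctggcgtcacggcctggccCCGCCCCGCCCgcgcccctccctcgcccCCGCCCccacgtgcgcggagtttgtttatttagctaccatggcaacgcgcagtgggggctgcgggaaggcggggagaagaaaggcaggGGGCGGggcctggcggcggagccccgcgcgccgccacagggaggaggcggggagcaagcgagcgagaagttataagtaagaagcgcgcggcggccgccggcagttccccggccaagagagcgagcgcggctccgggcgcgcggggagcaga
Grhl3: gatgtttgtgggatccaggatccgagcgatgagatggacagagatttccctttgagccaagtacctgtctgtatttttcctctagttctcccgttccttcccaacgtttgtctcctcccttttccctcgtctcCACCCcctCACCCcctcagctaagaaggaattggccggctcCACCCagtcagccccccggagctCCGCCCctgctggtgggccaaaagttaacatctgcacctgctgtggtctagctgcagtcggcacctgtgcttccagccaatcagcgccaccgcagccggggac
Prdm1: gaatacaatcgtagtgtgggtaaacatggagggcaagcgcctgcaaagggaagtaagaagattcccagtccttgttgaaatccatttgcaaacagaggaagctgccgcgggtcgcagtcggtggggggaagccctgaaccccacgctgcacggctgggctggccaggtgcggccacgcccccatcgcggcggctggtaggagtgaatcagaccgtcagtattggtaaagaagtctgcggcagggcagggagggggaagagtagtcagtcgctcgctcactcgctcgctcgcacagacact
The Klf4 window held 4 GC boxes, the Grhl1 window 2 and the Grhl3 window 1, and Grhl3 also held 3 CACCC boxes. The Prdm1 window held neither. Of the windows not shown, that of Cebpa, which was also at least 2-fold below TNF KO in cFLIP KO epidermis, held no GC box and 2 CACCC boxes, and that of Gata3, which was not, held 2 GC boxes and 3 CACCC boxes, so the counts of boxes did not follow the differences. Of 32851 promoters of this length, 35.7% held a GC box and 57.5% a CACCC box, so both are common letters. A second RefSeq start of Grhl1, at chr12:24580469-24580768 (plus strand), held 2 CACCC boxes and no GC box. None of the 7 windows of the 6 factors held AACCGGTT, a core that Grainyhead-like factors bind, which stood in 0.146% of all promoters. A match is a description of letters and not a site, and the array gives 1 value per gene, so the starts of Grhl1 are not told apart.

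Grhl1 and Klf4 had the largest differences of the 9 factors between cFLIP KO and TNF KO epidermis, and both were lower in cFLIP KO. Grhl1 (ENTREZ gene 195733), a Grainyhead-like factor that in mice activates the desmosomal cadherin Dsg1, had a log2 signal of 9.35 on the TNF KO, 7.11 on the cFLIP KO and 8.86 on the cFLIP KO/TNF KO array. It was lowest on the cFLIP KO array by a wide margin, 4.70-fold below TNF KO (-2.23), whereas cFLIP KO/TNF KO lay 1.40-fold below TNF KO (-0.48). Of the genes in the brightest 10%, 4.83% were further below TNF KO in cFLIP KO epidermis than Grhl1. Because these are bulk samples, fewer cells that express a gene and less RNA per cell cannot be told apart.

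Klf4 (ENTREZ gene 16600), a Krüppel-like factor without which newborn mice lose the skin barrier, had a log2 signal of 10.59 on the TNF KO, 8.49 on the cFLIP KO and 9.76 on the cFLIP KO/TNF KO array. cFLIP KO was 4.30-fold below TNF KO (-2.10), and 6.46% of the brightest 10% were lower. cFLIP KO/TNF KO lay between the others, 1.78-fold below TNF KO (-0.83), and this was the lowest of the 9 factors in that comparison, with 0.750% of the brightest 10% below it. The order of the arrays was thus the same for Klf4 and Grhl1.

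**Figure D1:**
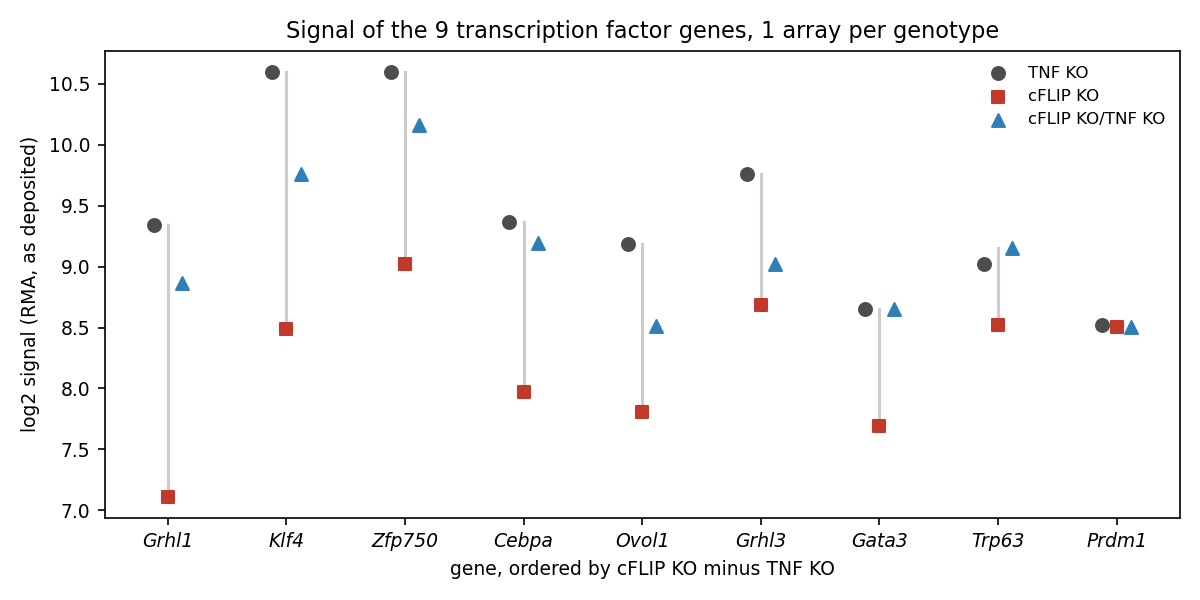
Log2 signal of each of the 9 factors (y axis, as deposited; the axis does not start at 0) on the TNF KO (circle), cFLIP KO (square) and cFLIP KO/TNF KO (triangle) arrays, 1 array per genotype, with genes ordered by the difference between cFLIP KO and TNF KO; a grey line spans each gene's lowest to highest value. The cFLIP KO value is the lowest of the 3 for all factors but Prdm1, whose values lie between 8.51 and 8.52.

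The second Grainyhead-like factor was low in both cFLIP-deficient genotypes. Grhl3 (ENTREZ gene 230824), which is needed for the barrier in mouse embryos and activates the cross-linking enzyme gene Tgm1, had a log2 signal of 9.76 on the TNF KO, 8.69 on the cFLIP KO and 9.02 on the cFLIP KO/TNF KO array. Both cFLIP-deficient arrays were low, at -1.07 (cFLIP KO) and -0.74 (cFLIP KO/TNF KO) relative to TNF KO. In cFLIP KO epidermis 34.8% of the brightest 10% were lower than Grhl3, and in cFLIP KO/TNF KO epidermis only 1.25%. Relative to cFLIP KO/TNF KO, cFLIP KO epidermis was at -1.75 for Grhl1 and at -0.33 for Grhl3, a gap of -1.42 between the genes. Only a repeated quantile normalization and a lowess trend could change this gap, and it ran to -1.48 with these. The other scalings shift both genes by the same amount. Their paralog Grhl2, which was chosen for naming after its values were seen, had 6.77, 6.70 and 6.77, with a difference of -0.07 in cFLIP KO epidermis as deposited and up to 0.52 under other scalings.

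Ovol1 and Zfp750, zinc finger genes of the suprabasal layers, were also lowest in cFLIP KO epidermis. Ovol1 (ENTREZ gene 18426), which in mice represses Myc and helps keratinocytes to stop dividing, had a log2 signal of 9.19 on the TNF KO, 7.80 on the cFLIP KO and 8.51 on the cFLIP KO/TNF KO array. Relative to TNF KO it was 2.60-fold lower in cFLIP KO epidermis (-1.38) and 1.60-fold lower in cFLIP KO/TNF KO epidermis (-0.68). Zfp750 (ENTREZ gene 319530) had 10.60, 9.02 and 10.16, which is 2.99-fold (-1.58) and 1.35-fold (-0.44) below TNF KO on the other arrays. Of the brightest 10%, 22.1% and 15.5% were lower in cFLIP KO epidermis than Ovol1 and Zfp750, and 1.96% and 7.16% were lower in cFLIP KO/TNF KO epidermis. Set against Klf4, the differences of Zfp750 from TNF KO were closer to 0, by 0.52 and 0.40 on the log2 scale.

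Cebpa (ENTREZ gene 12606), which with its paralog Cebpb drives cell cycle exit and differentiation in mouse epidermis, had a log2 signal of 9.36 on the TNF KO, 7.97 on the cFLIP KO and 9.19 on the cFLIP KO/TNF KO array. cFLIP KO was lowest, 2.63-fold below TNF KO (-1.40), with cFLIP KO/TNF KO at -0.17 as deposited and at -0.70 when scaled by Actb. Of the brightest 10%, 21.4% were lower in cFLIP KO epidermis and 27.1% in cFLIP KO/TNF KO epidermis. Relative to the median of that group, cFLIP KO was at -0.60, which is within 2-fold. Cebpb, chosen after its values were seen, had 9.01, 8.96 and 9.01. Cebpa minus Cebpb came to -1.35 for cFLIP KO relative to TNF KO epidermis. It lay between -1.37 and -1.30 with the repeated quantile normalization and the lowess trend, the only scalings that could change it.

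Gata3, Trp63 and Prdm1 differed by less than 2-fold in every comparison. Gata3 (ENTREZ gene 14462), which supports barrier lipid synthesis and the inner root sheath of the hair follicle in mice, had a log2 signal of 8.65 on the TNF KO, 7.69 on the cFLIP KO and 8.65 on the cFLIP KO/TNF KO array. The cFLIP KO/TNF KO value was exactly that of TNF KO, as it was for 12618 genes, and equality of this kind does not measure the size of any change. cFLIP KO was 1.94-fold below both (-0.95), and 41.5% of the brightest 10% were lower relative to TNF KO.

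Trp63 (ENTREZ gene 22061) had a log2 signal of 9.02 on the TNF KO, 8.52 on the cFLIP KO and 9.15 on the cFLIP KO/TNF KO array. As deposited it was lowest in cFLIP KO (-0.49 relative to TNF KO) and highest in cFLIP KO/TNF KO epidermis (0.13), but the direction turned with the scaling, from -0.49 to 0.30 for the former and from -0.39 to 0.20 for the latter. Of the brightest 10%, 65.7% were further below TNF KO in cFLIP KO epidermis. The value covers the whole gene, so isoforms of p63 are not told apart.

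Prdm1 (ENTREZ gene 12142), the gene of Blimp1, a repressor that acts in the granular layer, had a log2 signal of 8.52 on the TNF KO array and of 8.51 on both others. The 3 arrays were nearly level as deposited, while 83.9% of the brightest 10% were further below TNF KO in cFLIP KO epidermis, and with other scalings Prdm1 ran from -0.01 up to 0.78. Set against Grhl1, the factor furthest from it, the gap in the difference from TNF KO (Grhl1 minus Prdm1) was -2.22 in cFLIP KO epidermis. It ran to -2.25 with the repeated quantile normalization and the lowess trend, the only scalings that could change it.

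Counted over the 9 factors, 6 were at least 2-fold below TNF KO in cFLIP KO epidermis (Grhl1, Klf4, Zfp750, Cebpa, Ovol1 and Grhl3) and none was at least 2-fold higher. Of all 24011 genes, 9.15% were at least 2-fold lower and 3.88% at least 2-fold higher. Within the brightest 10% 39.1% were at least 2-fold lower, which is the nearer background for the share of 66.7% among the factors. The median difference of the 9 factors was -1.38, beside 0 over all genes and -0.79 in the brightest 10%. After the median of the brightest 10% was subtracted, Klf4 and Grhl1 were still at least 2-fold lower, and the median of the factors was -0.59.

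Between cFLIP KO/TNF KO and TNF KO epidermis none of the 9 factors differed by 2-fold in either direction, and over all genes 0.225% were at least 2-fold lower and 0.629% at least 2-fold higher. Within this narrower range, 7 of the 9 were below 0, Gata3 was equal and Trp63 was above 0. Of all genes 24.4% were below 0, and of the brightest 10% it was 50.8%. Among the 7, Prdm1 was nearly level (-0.01). The median was -0.44, beside 0 over all genes and -0.01 in the brightest 10%. Klf4, Grhl3 and Ovol1 were the lowest, with 0.750%, 1.25% and 1.96% of the brightest 10% below them. When the arrays were scaled by Actb, which was 0.52 higher in cFLIP KO/TNF KO than in TNF KO epidermis, Klf4, Grhl1, Grhl3 and Ovol1 passed 2-fold, beside 1.83% of all genes and 5.79% of the brightest 10%, and the median of all genes moved to -0.52.

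Between the cFLIP-deficient genotypes, 4 of the 9 factors were at least 2-fold lower where TNF was present, in cFLIP KO epidermis, relative to cFLIP KO/TNF KO epidermis: Grhl1 (-1.75), Klf4 (-1.27), Cebpa (-1.22) and Zfp750 (-1.14). Of all genes 8.07% were at least 2-fold lower and 3.32% at least 2-fold higher, and 33.9% of the brightest 10% were at least 2-fold lower. The median of the factors was -0.95, beside -0.75 in that group. Ovol1 (-0.71), Trp63 (-0.63) and Grhl3 (-0.33) lay closer to 0, and each of these turned to above 0 under at least 1 other scaling, up to 0.05, 0.13 and 0.42. Relative to the brightest 10% none of the factors was 2-fold lower, and Grhl1 was the furthest, with 7.50% of that group lower. The comparisons share arrays, so their values are given side by side and not as independent results.

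**Figure D2:**
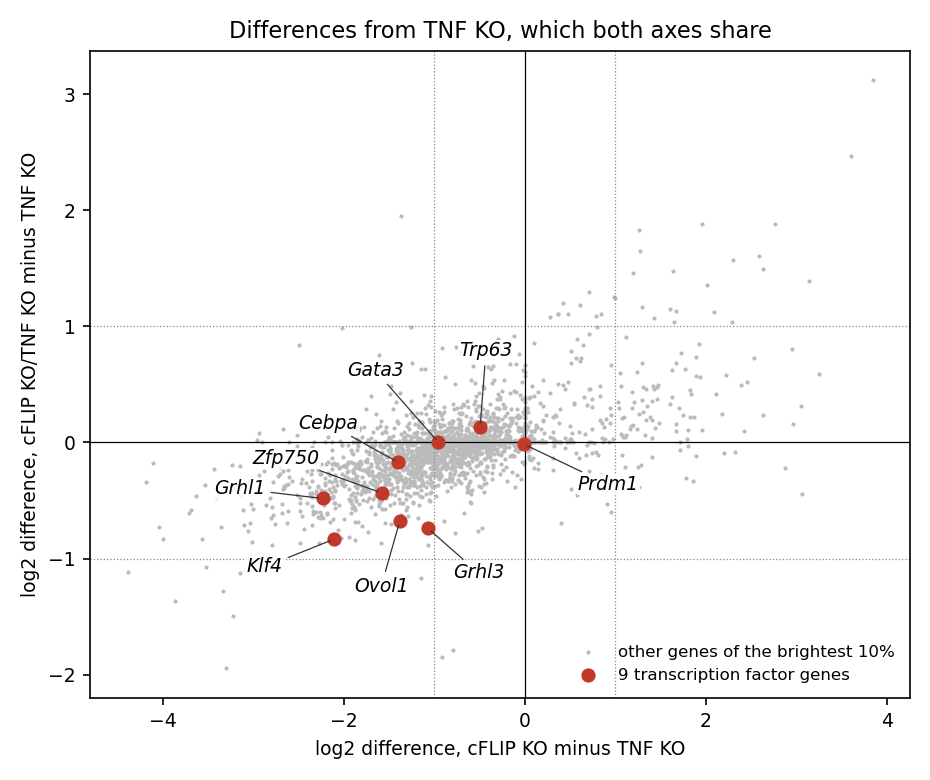
Log2 difference of cFLIP KO minus TNF KO (x axis) against cFLIP KO/TNF KO minus TNF KO (y axis) for the 9 factors (red, named) and the other genes of the brightest 10% by mean signal (grey); both axes use the same TNF KO array, and dotted lines mark 2-fold. As deposited, 6 factors lie left of the 2-fold line on the x axis, and none lies below it on the y axis, where Klf4 is lowest at -0.83.

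The order of the factors was followed as well. From lowest to highest, cFLIP KO relative to TNF KO ran Grhl1, Klf4, Zfp750, Cebpa, Ovol1, Grhl3, Gata3, Trp63 and Prdm1, and this order was the same after the repeated quantile normalization and the lowess trend. The other scalings move all 9 factors by the same amount and leave their order as it is. With no replicates, the SD of 0.22 over genes of cFLIP KO/TNF KO minus TNF KO served as a yardstick for neighbours in this order. It is a spread over genes and not array error, it leaves out the cFLIP KO array, and 12618 genes had a difference of 0 in it. The steps from Grhl1 to Klf4 (0.13), from Zfp750 to Cebpa (0.18), from Cebpa to Ovol1 (0.02) and from Grhl3 to Gata3 (0.12) were smaller than 0.22, so these neighbours are not set apart. A larger step does not set neighbours apart either. The SD over genes of cFLIP KO minus TNF KO was 0.68, above the largest step, from Klf4 to Zfp750 (0.52). For cFLIP KO/TNF KO against TNF KO the order ran Klf4, Grhl3, Ovol1, Grhl1, Zfp750, Cebpa, Prdm1, Gata3 and Trp63, with Grhl1 and Zfp750 exchanged under the repeated quantile normalization. In this order the step from Zfp750 to Cebpa (0.26) was the only one larger than the yardstick. All other neighbours are not set apart, and without array error this pair is not shown to be apart either.

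**Figure D3:**
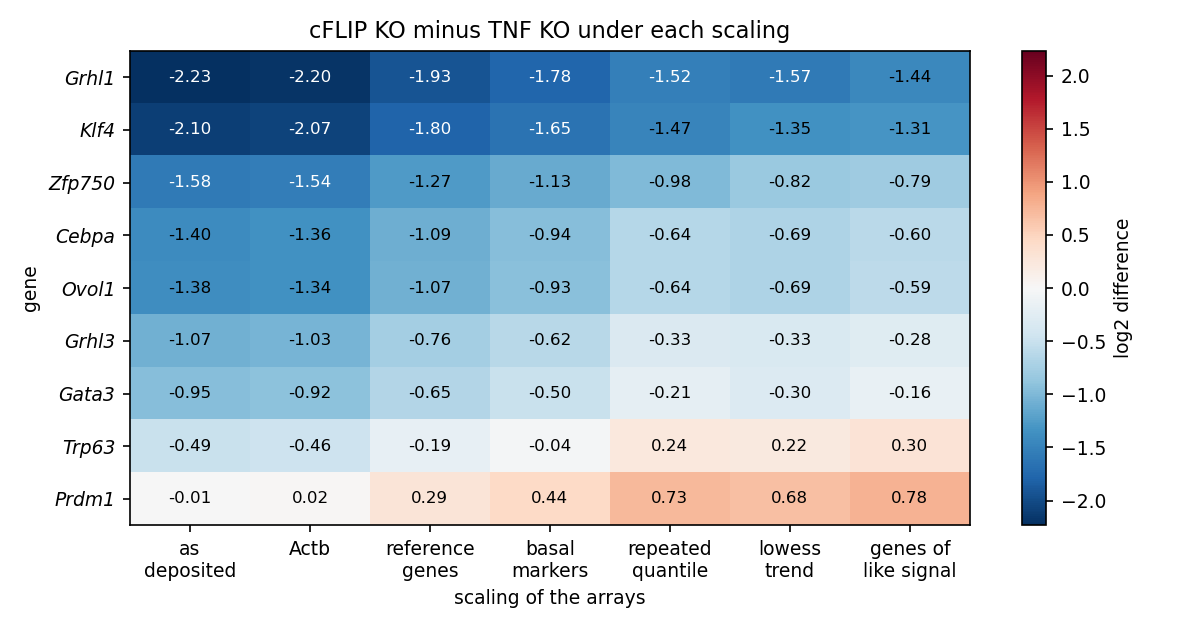
Log2 difference of cFLIP KO minus TNF KO for each factor (rows) as deposited and under 6 other scalings of the arrays (columns), with the value in each cell and blue for lower in cFLIP KO. Grhl1 runs from -2.23 to -1.44 and Klf4 from -2.10 to -1.31, while Trp63 and Prdm1 turn from below to above 0.

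Other members of the factors' families were mostly closer to 0. Of 25 listed paralogs 23 were measured, and 2 (8.70%) were at least 2-fold below TNF KO in cFLIP KO epidermis, with a median of 0. This share is near the 9.15% of all genes. Only 6 of the 23 were in the brightest 10%, where all 9 factors lay, and their median was -0.65, or 0.15 above the median of that group. Of these 6, 2 were at least 2-fold lower, beside 39.1% of that group. Those at least 2-fold lower were Klf3 (9.77 on the TNF KO, 8.04 on the cFLIP KO and 9.49 on the cFLIP KO/TNF KO array, a difference of -1.72 in cFLIP KO) and Klf5 (10.19, 9.08 and 10.11, -1.11), and relative to genes of like signal neither reached 2-fold (-0.93 and -0.32). Klf6, chosen after its values were seen, had 8.94, 8.89 and 9.07, so members of 1 family ranged from -2.10 for Klf4 to -0.05 for Klf6 as deposited. Klf4 minus Klf3 came to -0.38 in cFLIP KO epidermis and -0.56 in cFLIP KO/TNF KO epidermis, each relative to TNF KO, and Klf4 minus Klf5 to -0.99 and -0.75. Next came Prdm4 (-0.96), Klf13 (-0.91) and Cebpg (-0.89) in cFLIP KO epidermis, and Ovol2, chosen after its values were seen, had 4.78, 4.96 and 4.81 (0.19 in cFLIP KO epidermis). None of the 23 was at least 2-fold lower in cFLIP KO/TNF KO epidermis, where 16 had the same value as in TNF KO.

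A wider list of 32 transcription factors of keratinocytes, of which 30 were analysed here, was set beside the 9. In cFLIP KO epidermis 12 were at least 2-fold below TNF KO, beside 9.15% of all genes, and none was at least 2-fold higher. The median was -0.73. Of the 30, only 15 were in the brightest 10%, where all 9 factors lay. These 15 had a median of -1.53, or -0.74 relative to that group, and 11 were at least 2-fold lower. For the 9 factors the same values were -1.38, -0.59 and 6, so in cFLIP KO epidermis the factors were not lower than others of like signal. In cFLIP KO/TNF KO epidermis the medians were -0.44 for the 9 factors and -0.17 for these 15. Relative to the brightest 10% they were -0.43 and -0.16. Pou2f3, a POU factor of suprabasal keratinocytes, had a log2 signal of 9.27 on the TNF KO, 6.02 on the cFLIP KO and 8.86 on the cFLIP KO/TNF KO array. At -3.26 in cFLIP KO it was further from TNF KO than any of the 9 factors, and it was still at -2.46 relative to genes of like signal. The next furthest from TNF KO in cFLIP KO epidermis were Vdr, Rora and Rxra. Vdr, the vitamin D receptor gene, had 9.14, 6.79 and 9.09 (-2.35 in cFLIP KO), Rora had 10.48, 8.22 and 9.88 (-2.26), and Rxra, which pairs with Vdr, differed by -1.92. Dlx3, a homeobox factor of the granular layer and hair, was the lowest of the list in cFLIP KO/TNF KO epidermis (-0.63), with -0.73 in cFLIP KO as deposited and up to -0.12 there under other scalings. None of the 30 was at least 2-fold lower in cFLIP KO/TNF KO epidermis as deposited, where the median was -0.06, and up to 4 were under other scalings. In cFLIP KO epidermis 5 to 12 were across the scalings.

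Among 12 genes listed as upstream regulators or protein partners, 10 were analysed here, and 3 were at least 2-fold below TNF KO in cFLIP KO epidermis. Of all genes 9.15% were this much lower, and of the brightest 10%, which held 6 of the 10, it was 39.1%. Prkch, the gene of a protein kinase C that promotes keratinocyte differentiation, had 9.07, 6.86 and 8.76 in the same order of arrays (-2.21 and -0.31 relative to TNF KO). Its relative Prkcd had 7.95, 7.95 and 7.95. Notch1, a receptor that promotes the exit from the basal layer, had 9.09, 7.73 and 8.47 (-1.36 and -0.63). Of the corepressor genes, which in human keratinocytes encode partners of ZNF750, Rcor1 had -1.37, Ctbp1 -0.89, Kdm1a -0.01 and Ctbp2 0 in cFLIP KO relative to TNF KO epidermis. Lmo4, the gene of a Grhl3 partner in mice, was at -0.70, the kinase gene Ripk4 at -0.13 and the calcium-sensing receptor gene Casr at 0.31. Relative to the median of the brightest 10% in cFLIP KO epidermis, Prkch was at -1.41, Notch1 at -0.57 and Rcor1 at -0.58. Under other scalings 1 to 3 of the 10 were at least 2-fold lower, and the median of the list moved from -0.41 as deposited to as much as 0.04.

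Targets of the factors were described by lists. Of 11 listed p63 targets of basal keratinocytes 9 were measured, and Cldn1, the gene of a tight junction protein, was the 1 that was at least 2-fold below TNF KO in cFLIP KO epidermis (10.65, 8.96 and 10.69, a difference of -1.70). Of all genes 9.15% were this much lower, and of the brightest 10%, which held 5 of the 9, it was 39.1%. Under other scalings Cldn1 came to as little as -0.90, which is within 2-fold. Perp (-0.97), Satb1 (-0.87), Fermt1 (-0.56), Dst (-0.52), Krt5 (-0.43), Krt14 (-0.02), Itgb4 (-0.01) and Fras1 (0) lay within 2-fold, for a median of -0.52 as deposited, and of up to -0.06 under other scalings, beside the -0.49 of Trp63 itself. In cFLIP KO/TNF KO epidermis all 9 lay between -0.03 and 0.12 as deposited.

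Of 7 genes that Prdm1, Ovol1 or Grainyhead-like factors repress, none was at least 2-fold above TNF KO in cFLIP KO epidermis, beside 3.88% of all genes. The median was 0. Snai2, a repressor that keeps keratinocytes undifferentiated, was at least 2-fold lower as deposited (7.47, 6.31 and 7.57, a difference of -1.16), but not under each of the other scalings, where it came to as little as -0.57. Nfat5 was at -0.92 and Myc, which Ovol1 represses, had 8.13, 7.96 and 8.28. Fos (0.30), Ovol2 (0.19), Fosl1 (0) and Zeb1 (0) made up the rest.

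The 14 genes of differentiation that lie downstream were all below TNF KO in cFLIP KO epidermis as deposited, and 10 of them by at least 2-fold, with a median of -2.02. All 14 were in the brightest 10%, where 39.1% of genes were at least 2-fold lower and the median was -0.79, beside 9.15% of all genes. Krt1, Krt10, Krtdap, Sbsn and Dsg1a also stand on the list of suprabasal markers, so these lists are not independent. Casp14, the gene of the cornified layer caspase, was at -4.00, Flg, which encodes filaggrin, at -2.64, Alox12b, a lipoxygenase gene of barrier lipids, at -2.44 and Ivl, which encodes involucrin, at -2.30. Between 8 and 10 stayed at least 2-fold lower across the scalings. In cFLIP KO/TNF KO epidermis none was 2-fold lower as deposited and up to 5 were under other scalings, with a median of -0.35 as deposited. Dsg1a, a desmosomal cadherin gene, had 11.24, 9.03 and 10.89, so that Grhl1 minus Dsg1a, relative to TNF KO, was -0.03 in cFLIP KO epidermis and -0.14 in cFLIP KO/TNF KO epidermis. Tgm1, chosen after its values were seen, had 10.02, 9.29 and 9.82, and its differences from TNF KO (-0.73 and -0.20) were closer to 0 than those of Grhl3. Tgm3, another transglutaminase gene and also chosen after its values were seen, had -0.74 in cFLIP KO/TNF KO and -0.47 in cFLIP KO epidermis as deposited. In cFLIP KO epidermis it came to as much as 0.33 under other scalings.

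**Figure D4:**
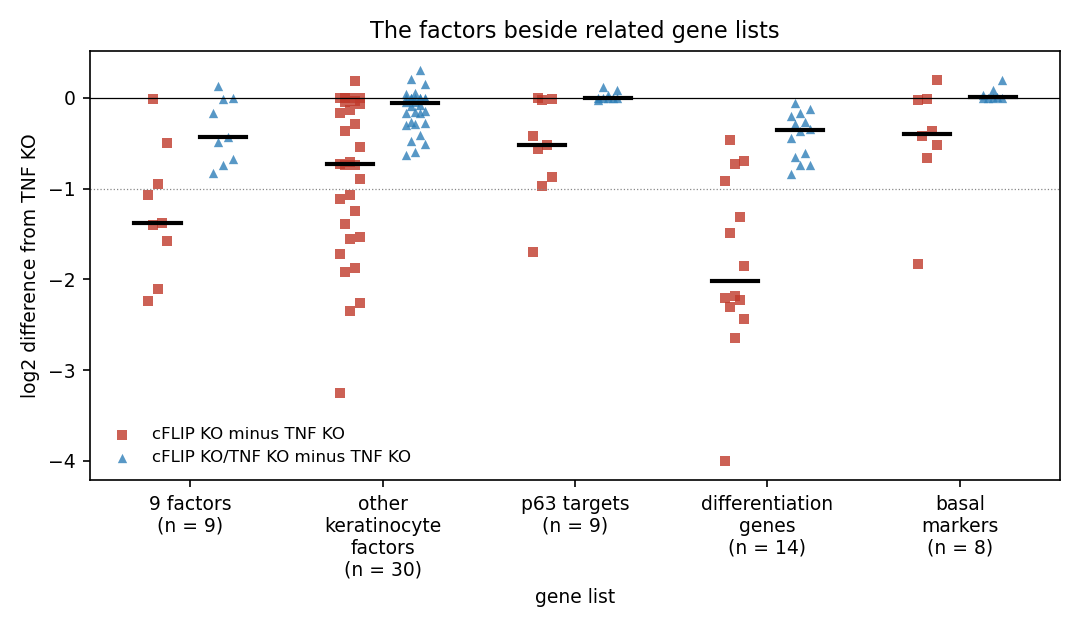
Log2 differences from TNF KO of the 9 factors and of the genes of 4 related lists, for cFLIP KO (squares) and cFLIP KO/TNF KO (triangles); each point is 1 gene, horizontal bars are medians, the dotted line marks 2-fold lower, and n is the number of genes measured. In cFLIP KO epidermis the medians run from -2.02 for the differentiation genes over -1.38 for the 9 factors to -0.39 for the basal markers, and in cFLIP KO/TNF KO epidermis from -0.44 for the factors to 0.00. The 9 factors and the differentiation genes are all in the brightest 10%, but only 15 of the 30 other keratinocyte factors are.

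The mix of cells on the arrays was followed with marker lists. Of 6 suprabasal keratinocyte markers 4 were at least 2-fold below TNF KO in cFLIP KO epidermis, and their log2 signals summed to 74.9 on the TNF KO, 66.1 on the cFLIP KO and 73.5 on the cFLIP KO/TNF KO array. Of 8 basal keratinocyte markers 1, Krt15, was at least 2-fold lower, and the sums were 80.0, 76.3 and 80.3. The sums of 7 hair follicle markers were 47.3, 40.1 and 36.3, those of 8 myeloid markers 51.8, 58.8 and 54.5, those of 6 T cell markers 32.3, 30.0 and 32.3, and those of 5 Langerhans cell markers 45.1, 43.6 and 48.2. The sums of 5 sebaceous gland markers were 31.4, 32.9 and 34.7, those of 5 adipocyte markers 24.1, 22.3 and 30.5, and those of 6 fibroblast markers 57.1, 56.8 and 59.7. The lowest log2 signal of any gene was 2.48, so a marker at 0 could not be read from this scale. On the cFLIP KO array, where most of the factors were lowest, the suprabasal sum was the lowest of the 3. The basal, T cell, Langerhans cell, adipocyte and fibroblast sums were lowest on that array too. The medians of these lists relative to TNF KO were -0.39, 0, -0.12, -0.02 and -0.08, so single genes weighed on some sums. Cd3g was at -1.96, with 4 of the 6 T cell markers equal to TNF KO, and the adipocyte marker Fabp4 was at -1.78. Of the fibroblast markers 3 were below and 3 above 0. All 6 suprabasal markers were in the brightest 10%, whose median on the cFLIP KO array was -0.79 relative to TNF KO. Of that group 39.1% were at least 2-fold lower. The part of the suprabasal sum in the factors' differences was not tested. In cFLIP KO/TNF KO epidermis, where Gata3 was equal to TNF KO, the hair follicle sum was the lowest of the 3, and its part was not tested either.

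The genes whose values most resembled those of Grhl1 were sought by the distance over both differences from TNF KO, among 11105 protein-coding genes with at least the median signal. The nearest were Hadhb, a subunit gene of the mitochondrial enzyme of fatty acid oxidation (7.12, 4.90 and 6.66), Slc37a2, a sugar phosphate transporter gene (7.98, 5.78 and 7.49), and Exph5, which encodes an effector of the vesicle protein Rab27 (7.17, 4.96 and 6.72). Their distances were 0.025, 0.033 and 0.043 on the log2 scale, and 25 genes lay within 0.1. For Prdm1 the nearest were Gtse1 and Nt5dc3, at distance 0, and Kdm1a, at 0.0014, but 2734 genes lay within 0.1. These likenesses rest on 3 arrays.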

How the data were processed

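Pooled epidermal RNA of 3 genotypes was hybridised to Affymetrix Mouse Gene ST arrays, 1 per genotype. The authors deposited log2 values of 1 signal per ENTREZ gene, for which they used a custom chip definition, RMA background correction and then quantile normalization. The log base was taken from the range of the values (2.48 to 13.82). RMA is named in the submitters' processing notes without a version. The deposited arrays were nevertheless not equal in distribution, with a median log2 signal of 4.41 on the cFLIP KO array against 4.12 (TNF KO) and 4.14 (both genes lost), for which the labels and methods name no step. A repeated quantile normalization was therefore among the alternatives. The number of arrays limits the precision.

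Genotypes were taken from the labels. For cFLIP KO/TNF KO the sample title disagrees with the genotype label, and the genotype label was used. Of 24973 values per array 24015 had a gene symbol in the platform annotation, and 4 symbols that occurred more than once were averaged, which left 24011 genes. For each gene the log2 values were subtracted in 3 comparisons, and genes at least 2-fold apart were counted. The analysis of variance named in the methods was not repeated, since a single array per group gives no residual, and no p-value was computed. Genes were ranked by mean signal and divided into 10 groups of equal size, of which the brightest is called the brightest 10%.

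The 9 factors and the gene lists were chosen with earlier results of these data known. All 9 factors could be named, every gene of lists with up to 12 genes, in longer lists the 4 furthest from 0 in cFLIP KO and the 2 furthest in cFLIP KO/TNF KO relative to TNF KO, and the 3 nearest genes of the highest and lowest factor. Alternatives comprised fold thresholds of 1.5 and 3, the mean over the factors, scaling by Actb, by reference genes or by basal keratinocyte markers, a repeated quantile normalization, a lowess trend on mean signal (share 0.3 of genes, 3 iterations), a floor at the 25th percentile and leaving out dim genes. Subtracting the median difference of the genes in the same group by signal was added after the data were seen. The steps were tested on simulated data. The scripts ran on Python 3.11.15 and loaded numpy 2.4.6, pandas 2.3.3, matplotlib 3.10.9 and statsmodels 0.14.6.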

Additional observations from a re-analysis of the deposited data

Results flagged for a closer look

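Trp63 lay on opposite sides of TNF KO in both cFLIP-deficient genotypes as deposited, at -0.49 (cFLIP KO) and 0.13 (cFLIP KO/TNF KO), a gap of -0.63. Snai2 (-1.16 and 0.11, a gap of -1.26) and Myc (-0.17 and 0.15, a gap of -0.32), from the list of genes that the factors repress, and the p63 target Satb1 (-0.87 and 0.12, a gap of -0.99) stood apart in the same way. Cd14, a myeloid marker, ran the other way, at 2.88 and -0.22, a gap of 3.10. Fabp4, an adipocyte marker, had -1.78 and 1.84, a gap of -3.62. The median of the Langerhans cell markers was -0.12 and 0.76, a gap of -0.88. These were picked out because the signs differed with both differences at least 0.1 from 0, among the factors, the other genes open to naming and the list medians. Of the 147 genes on all lists 16 met this, and the 6 given here are among them. With 1 array per genotype the gap was not tested, and the signs of all but Fabp4 and Cd14 turned for at least 1 of the differences under another scaling.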

How the results depend on the processing

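In the difference between cFLIP KO and TNF KO epidermis Klf4 and Grhl1 stayed at least 2-fold lower under each scaling, but counts and medians moved. The count of 6 factors below TNF KO in cFLIP KO epidermis became 7 at 1.5-fold (beside 15.5% of all genes), 2 at 3-fold (3.42%), 5 with reference genes (5.61%), 3 with basal markers (4.32%), and 2 after the repeated quantile normalization (4.84%), the lowess trend (4.95%) or the median of genes of like signal (4.30%). In the brightest 10% the shares were 61.0% at 1.5-fold, 15.5% at 3-fold and from 11.4% to 24.9% in the other settings named. The median of -1.38 became -1.07 with reference genes, -0.93 with basal markers, -0.64 after quantile normalization, -0.69 after the lowess trend and -0.59 after the median of genes of like signal. For cFLIP KO/TNF KO against TNF KO, the count of 0 became 3 at 1.5-fold (1.04% of all genes) and 4 with scaling by Actb (1.83%), where the median of -0.44 became -0.96. For cFLIP KO against cFLIP KO/TNF KO, a count of 4 became 7 at 1.5-fold (15.3% of all genes), 1 at 3-fold (2.52%), 1 with Actb, reference genes, basal markers, quantile normalization or the lowess trend (2.65% to 4.10%), and 0 after the median of genes of like signal (3.38%). The median of -0.95 there became -0.39 with Actb, -0.61 with reference genes, -0.46 with basal markers, -0.27 after quantile normalization, -0.33 after the lowess trend and -0.20 after the median of genes of like signal. Scaling by a gene or list adds 1 constant to every gene, so the median of all genes itself moved by 0.31 with reference genes and 0.45 with basal markers in cFLIP KO against TNF KO, by -0.52 with Actb for cFLIP KO/TNF KO relative to TNF KO, and by 0.56, 0.34 and 0.50 with Actb, reference genes and basal markers between the cFLIP-deficient genotypes. The quantile normalization, the lowess trend and the median of genes of like signal remove, by construction, the shift that genes of like signal share. The planned scaling by 10 reference genes used the 7 that were measured. A floor at the 25th percentile and leaving out dim genes moved no count of factors. No paired analysis was possible because each genotype has 1 array. Without replicates, array-to-array error could not be estimated.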

Other observations

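Markers of the hair follicle and of adipocytes differed between the genotypes in ways that the factors did not. Krt71, a keratin gene of the inner root sheath, had a log2 signal of 9.25 on the TNF KO, 5.95 on the cFLIP KO and 4.97 on the cFLIP KO/TNF KO array, so it was low in both cFLIP-deficient genotypes and lowest in cFLIP KO/TNF KO. Of 7 hair follicle markers 3 were at least 2-fold below TNF KO in cFLIP KO epidermis and 4 in cFLIP KO/TNF KO epidermis. Of 5 adipocyte markers 3 exceeded TNF KO by at least 2-fold in cFLIP KO/TNF KO epidermis and 1 was at least 2-fold below it in cFLIP KO epidermis. Fabp4, the fatty acid binding protein gene of adipocytes, had 7.53, 5.75 and 9.37, and Adipoq, which encodes adiponectin, had 3.12, 3.10 and 4.98 in the same order. Of 8 myeloid markers 3 were at least 2-fold above TNF KO in cFLIP KO epidermis, Itgam with 1.51, Cd14 with 2.88 and Csf3r with 1.18, and none in cFLIP KO/TNF KO. Of 6 T cell markers 1, Cd3g, was at least 2-fold lower in cFLIP KO (-1.96). No test was possible for these values.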
